A study of Mus musculus with 6 samples.

Results

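Osteopontin, the secreted phosphoprotein encoded by Spp1, was examined together with the genes of its main receptors in TAMs (tumor-associated macrophages) from a mouse model of ovarian cancer. The 6 genes were Spp1, Cd44 and the integrin chains Itgav, Itgb3, Itgb5 and Itga9, out of 56980 genes in the deposited table. They were chosen by name from what is known of osteopontin binding, with earlier results of these libraries already known, so their difference between the groups is given as a description and carries no test. All 6 passed the filter on low values and belonged to the 14776 genes tested.

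ID8 cells, a mouse ovarian epithelial cancer line, were injected into the peritoneal cavity of female C57BL/6 mice, either WT or C5aR knockout (C5aR-/-), that were 6 to 8 weeks old. The knockout was on the C57BL/6 background and removed C5aR from every host cell type, not from macrophages alone, and the injected tumor cells were the same line in both groups. After 2 months, live CD45+CD11b+Ly6G-F4/80+ cells were sorted from the tumors, and their poly(A) RNA was sequenced in 3 libraries per group. The study speaks of more mice per group than the 3 libraries analysed here, and the labels do not tie a library to a mouse, so the spread given here is the spread between libraries.

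Osteopontin is both a matrix protein and a cytokine. Integrins that carry the αv chain (Itgav) with β3 (Itgb3) or β5 (Itgb5) bind its arginine-glycine-aspartate (RGD) motif, α9 (Itga9) binds a neighboring motif that thrombin cleavage exposes, and CD44 is the receptor for hyaluronan and for osteopontin. In tumors, macrophages are a known source of osteopontin, and Spp1 marks a macrophage state described in many cancers.

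The sequence below is shown because it holds the integrin binding site that links Spp1 to the other genes. It is the stretch of 66 coding bases around the RGD codons, read from GENCODE M21 transcript Spp1-201 (chr5:104439457-104439522, GRCm38, plus strand, exon 6 of 7). Capitals mark the 3 codons of the motif, which starts at codon 144 of 294, and the codons just after it hold the motif read by α9 and α4 integrins.
Spp1-201: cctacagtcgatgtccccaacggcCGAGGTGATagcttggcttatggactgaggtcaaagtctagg
The motif occurred once in 6 of the 7 annotated coding transcripts of Spp1 and was absent from Spp1-206. TPM (a level divided by transcript length and scaled to the same total in every library) was deposited per gene, so the transcripts, and the CD44 splice forms, cannot be told apart here.

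Spp1 lies on chromosome 5 from 104435118 to 104441050 (GRCm38, plus strand). The 250 bases before its start are shown because Spp1 had the largest difference of the 6 genes. The sequence is from RefSeq (chr5:104434861-104435110, GRCm38.p6, plus strand), and capitals mark matches to the motifs searched.
Spp1 promoter: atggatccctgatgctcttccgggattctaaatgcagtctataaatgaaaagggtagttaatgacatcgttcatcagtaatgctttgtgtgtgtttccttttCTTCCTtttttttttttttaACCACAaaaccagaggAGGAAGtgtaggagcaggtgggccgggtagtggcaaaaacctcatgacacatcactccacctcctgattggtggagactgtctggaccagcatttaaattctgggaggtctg
Both strands were searched for TGANTCA (AP-1), TGTGGT (RUNX), AGGAAG (ETS), ACGTG (hypoxia response) and CACGTG (E-box, which contains ACGTG). The window held 1 RUNX match, on the minus strand from 128 to 123 bases before the start, and 2 ETS matches, at 148 to 143 and at 112 to 107 bases before it. Among 32851 promoter windows of the same length, 14.0% held the RUNX letters and 29.5% the ETS letters. The letters of AP-1 (6.75% of windows), of the hypoxia response (16.6%) and of the E-box (6.02%) were not in this window. Of the other promoters, Cd44 held 3 ETS matches and 1 hypoxia response match, Itgav 1 ETS match, Itga9 1 hypoxia response match and Itgb5 none. The Itga9 window (chr9:118711442-118711691) lies inside the annotated gene (chr9:118606690-118901003, GRCm38, plus strand), before an internal start, and not before the first start of the gene. RefSeq windows were found for 5 of the 6 genes, without Itgb3.

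The label of the groups was checked first. In the WT libraries the C5aR gene C5ar1 stood at 86.5, 37.3 and 16.2 TPM, and in the C5aR-/- libraries at 0.38, 0.11 and 0.05 (log2 difference -5.04, SE 0.56, limma adjusted p = 0.0666). Without C5aR-/- TAM 1 the adjusted p from limma was 0.0221. In the other fits that left out 1 library it was 0.073 (without WT TAM 3) to 0.329 (without WT TAM 2). Macrophage markers varied within each group: the summed TPM of 10 markers was 2451 to 8775 in WT and 2367 to 8590 in C5aR-/- TAMs. Lyz2 was the largest part of each sum, at 1408 to 5812 in WT and 1151 to 4787 in C5aR-/- TAMs. By log2 difference, 7 of the 10 were higher and 3 lower, with a median of 0.51 against -0.05 over all tested genes. The 10 markers of tumor epithelium summed to 2029 to 2227 in WT and 1817 to 2354 in C5aR-/- TAMs, although the sort selected CD45+ cells. In sorted bulk RNA, fewer cells of a type and less RNA per cell cannot be told apart.

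Spp1 was higher in C5aR-/- TAMs. Its TPM was 48.0, 48.3 and 49.6 in WT and 184, 226 and 344 in C5aR-/- TAMs. The WT libraries were almost level, all C5aR-/- libraries lay above them, and the lowest C5aR-/- library was 3.71 times the highest WT library. Means were 48.6 ± 0.84 and 251 ± 82.8 TPM for WT and C5aR-/- TAMs (SD, n = 3 each), a ratio of 5.17. On the scale of log2(TPM + 1) the difference was 2.30 (SE 0.23), and 20 of the 14776 genes had a larger one. Within the libraries, Spp1 stood above 78.6% to 79.0% of the tested genes in WT and above 95.1% to 97.5% in C5aR-/- TAMs. With 1 library left out, its log2 difference was 2.05 to 2.50. Gm42793, an unclassified annotated gene on the same strand, overlaps 1252 bases of Spp1 and had a TPM of 0.14 to 1.80.

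**Figure D1:**
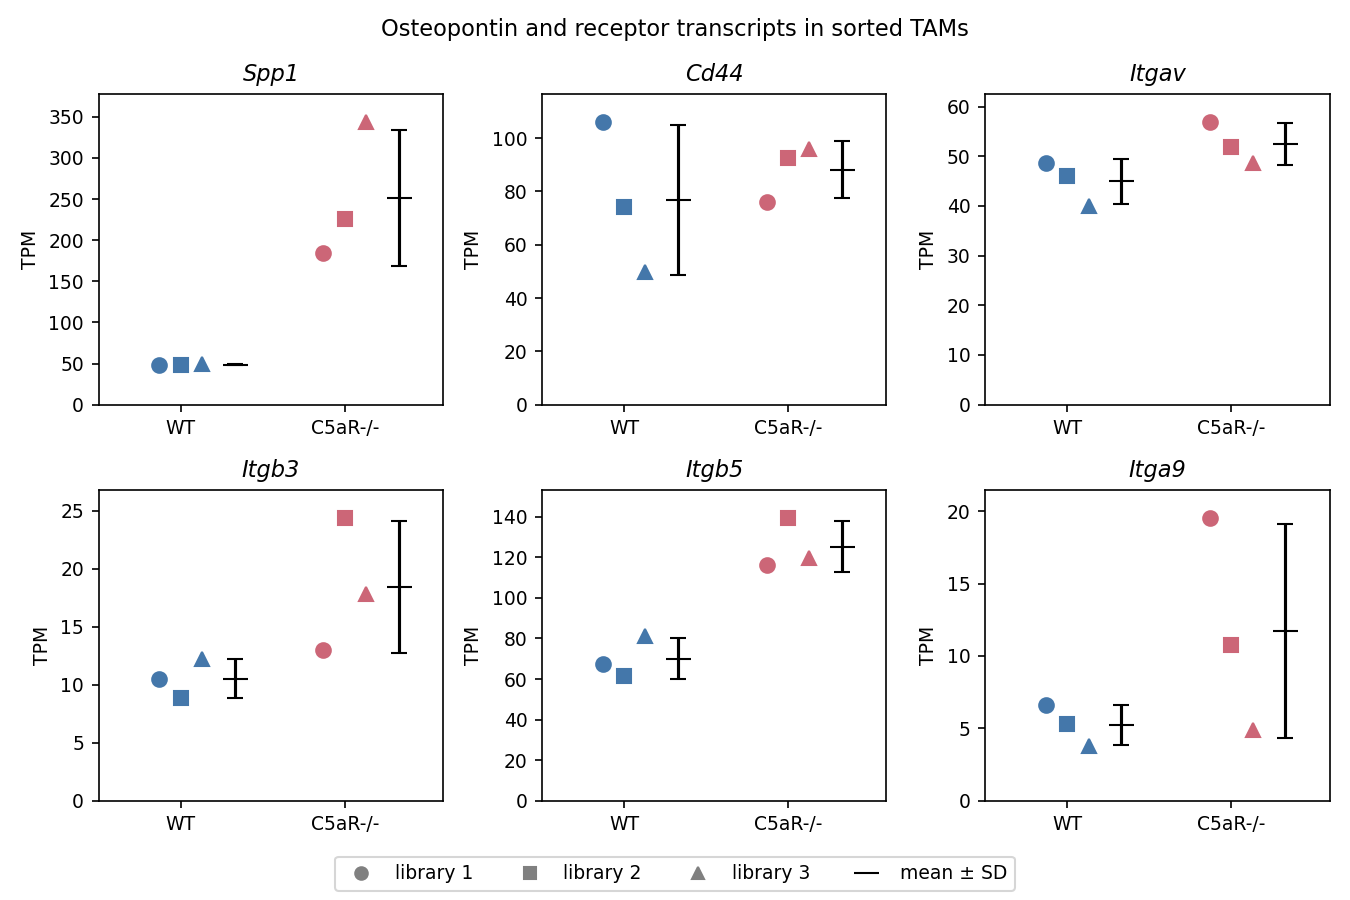
Each panel plots the TPM of 1 gene (vertical axis, from 0) in the 3 WT (blue) and 3 C5aR-/- libraries (red), with the mean and SD beside them. Spp1 sits near 48 in all WT libraries and between 184 and 344 in C5aR-/- libraries, whereas Cd44 overlaps between the groups.

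The 2 β chains among the 6 genes, Itgb5 and Itgb3, followed in the same direction with smaller differences. Itgb5, the β chain of αvβ5, had a TPM of 67.3, 61.7 and 81.2 in WT and of 116, 140 and 120 in C5aR-/- TAMs. The groups did not overlap, and the mean was 70.1 ± 10.0 against 125 ± 12.5 (SD, n = 3 each), a log2 difference of 0.83 (SE 0.15). Itgb3, the β chain of αvβ3 and a marker of osteoclasts and platelets, was lower in level, with a TPM of 10.5, 8.89 and 12.2 in WT and of 13.02, 24.4 and 17.8 in C5aR-/- TAMs. Its groups did not overlap either, but C5aR-/- TAM 1 was only 1.07 times the highest WT library. The log2 difference of Itgb3 was 0.72 (SE 0.25), and with 1 library left out it was 0.50 to 0.93.

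Platelet transcripts were given for comparison with Itgb3: of 6 markers 2 were tested, the summed TPM was 19.9 to 153 in WT and 19.8 to 289 in C5aR-/- TAMs, and Gp6, Gp9 and Gp1bb stayed at or under 0.72. Ppbp (0.25 to 0.59 in WT and 0.66 to 2.17 in C5aR-/- TAMs) and Gp1bb (0 to 0.25 and 0.27 to 0.51) were low but higher without overlap. Pf4, which macrophages also express, made up most of that sum except in WT TAM 3, where it was 8.51 and Itga2b was 10.8. Itga2b, the other tested marker, overlapped, at 5.44 to 10.8 in WT and 6.40 to 7.66 in C5aR-/- TAMs (log2 difference -0.25). The part of platelets in the Itgb3 values was not tested.

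Itgav, the α chain shared by both receptors, was nearly level. It had a TPM of 48.7, 46.1 and 40.0 in WT and of 56.9, 51.8 and 48.7 in C5aR-/- TAMs. The groups were apart only by the second decimal, since WT TAM 1 was at 48.70 and C5aR-/- TAM 3 at 48.71, and after median-of-ratios scaling they overlapped. The log2 difference was 0.22 (SE 0.14), and without WT TAM 3 it was 0.14. The TPM ratio of Itgb5 to Itgav was 1.34 to 2.03 in WT and 2.04 to 2.69 in C5aR-/- TAMs. These groups were only narrowly apart, with WT TAM 3 at 2.032 and C5aR-/- TAM 1 at 2.042. The ratio of Itgb3 to Itgav was 0.19 to 0.30 in WT and 0.23 to 0.47 in C5aR-/- TAMs, with overlap. Itgb5 exceeded Itgb3 in every library, by 6.42 to 6.94 times in WT and 5.72 to 8.93 times in C5aR-/- TAMs.

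Cd44 and Itga9 overlapped between the groups. Cd44 had a TPM of 106, 74.1 and 49.8 in WT and of 76.0, 92.6 and 96.0 in C5aR-/- TAMs. The 3 C5aR-/- libraries lay within the WT range, which spanned 2.13-fold, and the log2 difference of 0.26 (SE 0.27) was smaller than its own error. The difference of Cd44 was -0.02 without WT TAM 3 and 0.52 without WT TAM 1. Itga9, the α chain of α9β1, had a TPM of 6.59, 5.29 and 3.79 in WT and of 19.5, 10.8 and 4.87 in C5aR-/- TAMs. It was high in C5aR-/- TAM 1 and 2, while C5aR-/- TAM 3 fell within the WT range. The C5aR-/- values spanned 4.01-fold, and the log2 difference was 0.88 (SE 0.46). Without C5aR-/- TAM 1 the difference of Itga9 was 0.44, and without C5aR-/- TAM 3 it was 1.35 and the groups no longer overlapped. Gm2415 is annotated antisense to Itga9 over 10929 bases and had a TPM of 1.91 to 5.44, and whether the counting used strand is not given in the sources used here.

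All 6 genes had a higher mean TPM in C5aR-/- TAMs, and their median log2 difference was 0.78, against -0.05 over all 14776 genes. In 4 of the 6 the groups did not overlap, each time with the higher values in C5aR-/- TAMs. Over all genes 21.3% did not overlap, 8.84% being higher and 12.5% lower. Under the rule that combined an unadjusted limma p below 0.05 with a 2-fold difference or more, 1 of the 6 passed (Spp1), where 4.96% of all genes passed, 2.13% as higher and 2.84% as lower. With the p adjusted over all genes 0 of the 6 passed, as did 0% of all genes. These shares are background, and nothing is read from them, because the genes were chosen with the contrast known.

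The order of the levels differed between the groups. Cd44 was highest in WT TAM 1 and 2 and Itgb5 in WT TAM 3, and Spp1 lay below both in all 3. In the C5aR-/- libraries Spp1 was highest in all 3, followed by Itgb5, Cd44 and Itgav. Itgb3 and Itga9 were the 2 lowest in all 6 libraries. In WT the levels of Spp1 (48.6 ± 0.84) and Itgav (44.9 ± 4.48) lay within 1 SD of Itgav, and those of Cd44 (76.7 ± 28.2) and Itgb5 (70.1 ± 10.0) within 1 SD of Itgb5. In C5aR-/- TAMs every step of the order from Spp1 to Itgav exceeded the larger SD of the neighbors. The exceptions were Itgb3 (18.4 ± 5.71) and Itga9 (11.7 ± 7.38), which differed by less than the SD of Itga9. Spp1 made up 16.7% to 20.95% of the summed TPM of the 6 genes in WT and 39.5% to 54.5% in C5aR-/- TAMs. The 5 receptor genes summed to 187 to 239 in WT and 282 to 319 in C5aR-/- TAMs.

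Because macrophage markers varied several fold within a group, Spp1 was set against transcripts of the same library. Adgre1, which encodes the sorting antigen F4/80, ranged from 25.4 to 114 in WT and from 27.9 to 91.1 in C5aR-/- TAMs. Its log2 difference was -0.13 (SE 0.62), and it was among the 3 of 10 macrophage markers that were lower. The TPM ratio of Spp1 to Adgre1 was 0.42, 1.06 and 1.96 in WT and 2.02, 5.64 and 12.3 in C5aR-/- TAMs, so the groups met but did not overlap. The highest ratio came from C5aR-/- TAM 3, the C5aR-/- library with the lowest Adgre1. Of the receptor genes, Itgb5, Itgb3 and Cd44 were set against Adgre1, and each of these ratios overlapped between the groups. Itgav and Itga9 were not set against it. For Itgb5 the ratio was 0.59 to 3.20 in WT and 1.28 to 4.29 in C5aR-/- TAMs, for Itgb3 0.09 to 0.48 and 0.14 to 0.64, and for Cd44 0.93 to 1.97 and 0.83 to 3.44. Thus Itgb5 and Itgb3 were apart on the TPM scale but not relative to Adgre1. Set against Csf1r, the receptor of macrophage colony-stimulating factor, the ratio was 0.20 to 0.83 in WT and 0.61 to 4.11 in C5aR-/- TAMs, and the groups overlapped. The part of the macrophage content in the Spp1, Itgb5 and Itgb3 values was not tested.

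The level of Spp1 was also set against Cxcl9, a T cell-attracting chemokine whose macrophages are often described as the counterpart of Spp1-high macrophages. The TPM of Cxcl9 was 1.36, 3.79 and 11.4 in WT and 1.81, 2.24 and 4.68 in C5aR-/- TAMs, and the groups overlapped (log2 difference -0.48, SE 0.62, limma adjusted p = 0.76). The ratio of Spp1 to Cxcl9 was 35.3, 12.7 and 4.34 in WT and 102, 101 and 73.5 in C5aR-/- TAMs. All C5aR-/- libraries lay above all WT libraries. On the log2 scale, the ratio was 3.25 ± 1.18 in WT and 6.03 ± 0.10 in C5aR-/- TAMs (SD, n = 3 each). On that scale the spread lay almost entirely in WT, where Cxcl9 was low and spanned 8.40-fold.

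**Figure D2:**
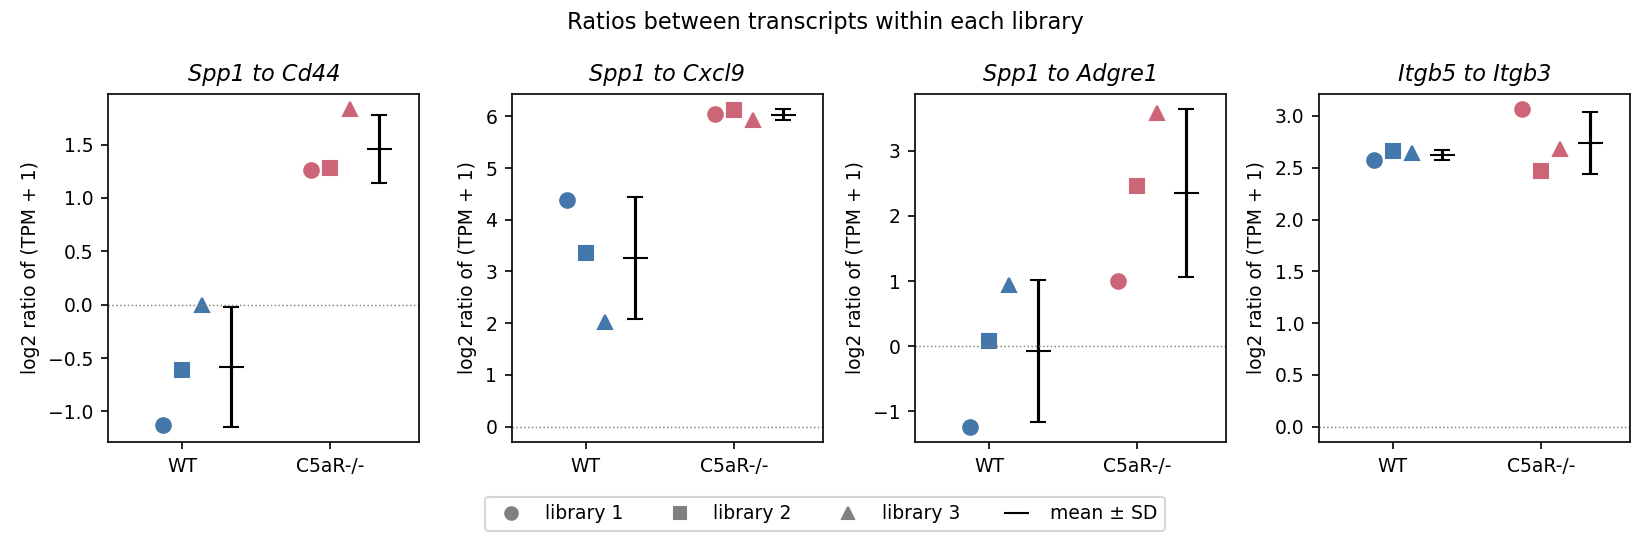
Each panel plots, per library, the log2 ratio of 2 transcripts (TPM + 1, vertical axis) for WT (blue) and C5aR-/- TAMs (red), with the mean and SD. Spp1 relative to Cd44, Cxcl9 and Adgre1 was higher in every C5aR-/- library than in any WT library, and the ratio of Itgb5 to Itgb3 overlapped, at 2.57 to 2.66 in WT and 2.47 to 3.06 in C5aR-/- TAMs.

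The genes whose profile over the 6 libraries was nearest to that of each member were found by the root mean square distance between centered log2(TPM + 1) values. Nearest to Spp1 were Hist1h2br (distance 0.16), Adamdec1 (0.26), Hist1h2an (0.26), Hist1h2bk (0.30) and Tnfrsf23 (0.35). The 3 histone genes had a TPM of at most 10.7 and belong to a family of near-identical copies whose values are uncertain. Adamdec1 was low as well, at 0.09 to 0.43 in WT and 1.90 to 5.96 in C5aR-/- TAMs. The 3 histone genes and Adamdec1 were below 1 TPM in every WT library, so they passed the filter through the C5aR-/- libraries alone. Tnfrsf23, a decoy receptor of the TNF family, had a TPM of 1.89 to 3.93 in WT and 14.7 to 16.1 in C5aR-/- TAMs. Nearest to Itgb5 were Fam210b (0.07), Msln (0.075) and Bag2 (0.10).

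Msln encodes mesothelin, a surface protein of mesothelium and ovarian tumor cells. It had a TPM of 145, 135 and 180 in WT and of 268, 284 and 288 in C5aR-/- TAMs. The other 6 markers of mesothelium had negative log2 differences, and the median of the 7 was -1.12. Upk3b, Upk1b, Lrrn4 and Muc16, 4 of the 7, were lower without overlap, as were 12.5% of all genes. The 7 markers summed to 1952 to 2504 in WT and 1154 to 1938 in C5aR-/- TAMs, and 1 of the 7 had a positive log2 difference. The tumor epithelium list split, with 3 of its 8 tested genes higher and 5 lower. Without overlap, Krt8 (455 to 465 in WT and 624 to 758 in C5aR-/- TAMs) and Cldn3 (38.5 to 48.6 and 102 to 138) were higher, and Muc16 (142 to 148 and 10.2 to 39.2), which is also in the mesothelium list, was lower. The part of tumor or mesothelial cells in the Spp1 and Itgb5 values was not tested. Nearest to Itgb3 were Tuft1 (0.10), Hist1h4d (0.11) and Bag2 (0.12). Itgb5 itself was at a distance of 0.19 from Itgb3, with 28 genes nearer.

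Itga9 was nearest to Stk17b (0.12), Gpr65 (0.13) and Aoah (0.15), genes found in leukocytes. Itgav was nearest to Emd, Tmem65 and Notch2 (0.03 each), and Cd44 to Siah2 (0.13), Tubb6 (0.13) and C2cd2l (0.14).

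The other genes of the osteopontin axis were described by lists, each by its counts and its median beside the median of -0.05 over all tested genes, of which 8.84% were higher without overlap and 12.5% lower without overlap. Across these lists 0 genes passed an adjusted p of 0.05 with limma (0% of all genes), and 2133 of the 14776 genes had an unadjusted p under 0.05.

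The bone matrix genes of the same family (Dspp, Dmp1, Ibsp and Mepe) were listed at 0 in all 6 libraries, so Spp1 was the only gene of the 5 with a value above 0. Of 12 genes that cut, cross-link or modify osteopontin, 6 were tested, of which 4 were higher and 2 lower (median 0.95), and 3 were higher without overlap. Acp5, the acid phosphatase that removes phosphate from osteopontin, had a TPM of 18.2, 20.3 and 22.9 in WT and of 125, 67.5 and 61.8 in C5aR-/- TAMs. The difference for Acp5 on the log2 scale was 1.94 (SE 0.28, limma adjusted p = 0.0668). Mmp12, macrophage elastase, had a TPM of 0.87 to 1.39 in WT and 3.43 to 12.1 in C5aR-/- TAMs (log2 difference 1.95, SE 0.41, limma adjusted p = 0.132).

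Mmp2, a gelatinase, was likewise low, at 0.81 to 1.28 in WT and 2.56 to 9.84 in C5aR-/- TAMs (log2 difference 1.77). Mmp9, the other gelatinase, overlapped, at 6.71 to 22.3 in WT and 1.07 to 23.5 in C5aR-/- TAMs. F2, which encodes thrombin, was at or under 0.07 in all libraries. The list's median rested on its low genes, and among genes with a TPM of at least 5 it was -0.0038.

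Of 7 other integrin chains that bind osteopontin or pair with its receptors, 5 were tested, with 1 higher and 4 lower (median -0.29, and -0.07 without C5aR-/- TAM 3). Itga5, the α chain of the fibronectin receptor, had a TPM of 25.1, 18.4 and 26.3 in WT and of 37.4, 45.4 and 134 in C5aR-/- TAMs. Its groups did not overlap, and C5aR-/- TAM 3 stood far above the others (log2 difference 1.38, SE 0.47, limma adjusted p = 0.271). Itgb7, the partner of α4 in the gut-homing integrin, was lower, with a TPM of 70.6, 56.4 and 74.5 in WT and of 36.3, 38.7 and 18.5 in C5aR-/- TAMs (log2 difference -1.14, SE 0.29, limma adjusted p = 0.177).

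The mast cell markers, among the cells known for β7, were given beside Itgb7: 5 of 6 were lower without overlap, and Mcpt4 was 12.02 to 22.4 in WT and at most 0.25 in C5aR-/- TAMs. Their part in the Itgb7 values was not tested. Itgb1, the partner of α9 and α4, had the highest mean TPM of the 7 other chains in both groups. It overlapped, at 203 to 237 in WT and 132 to 212 in C5aR-/- TAMs, and in C5aR-/- TAM 3 Itga5 (134) was slightly above it. Itgb8 was 4.51 to 6.38 in WT and 3.61 to 4.05 in C5aR-/- TAMs, lower without overlap (log2 difference -0.38, SE 0.20).

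Other ligands of these integrins were higher in 8 of 10 tested genes (of 16 listed), with a median of 0.69, and 2 were higher without overlap. Ccn2, a matricellular protein of connective tissue, had a TPM of 185, 149 and 241 in WT and of 416, 470 and 497 in C5aR-/- TAMs (log2 difference 1.29, SE 0.20, limma adjusted p = 0.08). Vcam1, the adhesion ligand of α4β1 and α9β1, had a TPM of 9.35, 9.66 and 15.8 in WT and of 44.4, 19.4 and 21.4 in C5aR-/- TAMs (log2 difference 1.16, SE 0.36, limma adjusted p = 0.232). Tnc, tenascin C, was 0.50 to 1.91 in WT, 17.96 and 17.3 in C5aR-/- TAM 2 and 3, and 0.70 in C5aR-/- TAM 1.

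Fbn1, fibrillin 1, overlapped, with a log2 difference of 0.92 (SE 0.63). The 2 lower genes, Fn1 (log2 difference -0.52, SE 0.43) and Thbs1 (-0.08, SE 1.06), overlapped too. Fn1, the fibronectin gene, was 445 to 940 in WT and 295 to 725 in C5aR-/- TAMs. Postn, which did not pass the filter, was 0.72 to 2.69 in WT and at most 0.57 in C5aR-/- TAMs. Vtn, the vitronectin gene, and the 3 fibrinogen genes were listed at 0 in every library. Fibroblast markers summed to 406 to 608 in WT and 440 to 557 in C5aR-/- TAMs, and in WT most of the sum was Dcn (373 to 531). Of the 8 fibroblast markers 5 were tested, with 1 higher (Col1a1) and 4 lower. Col1a1, a fibrillar collagen chain, was 3.52 to 10.8 in WT and 1.21, 43.3 and 236 in C5aR-/- TAM 1, 2 and 3. It was low in the first and high in the others, as Tnc was. Dcn was 548, 372 and 180 in the same 3 libraries. Col1a2, another collagen chain, was lower without overlap, at 4.50 to 23.6 in WT and 1.75 to 2.46 in C5aR-/- TAMs. The part of fibroblasts in the ligand values was not tested.

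**Figure D3:**
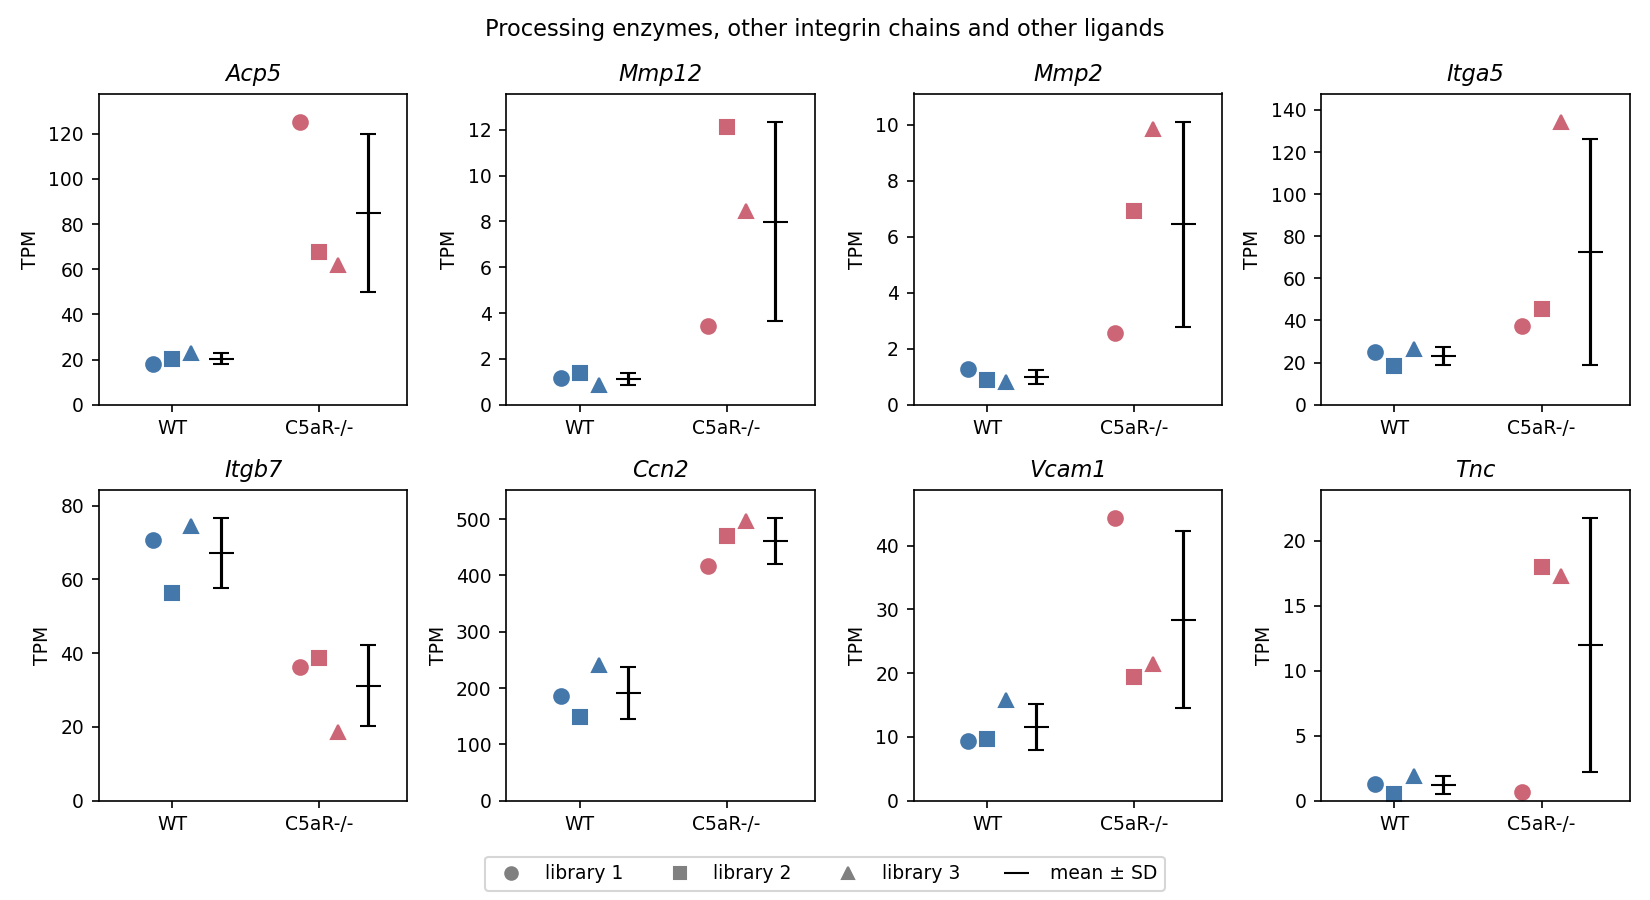
Each panel plots the TPM of 1 gene (vertical axis, from 0) in the WT (blue) and C5aR-/- libraries (red), with the mean and SD. Acp5, Mmp12, Mmp2, Itga5, Ccn2 and Vcam1 were higher in every C5aR-/- library than in any WT library, Itgb7 was lower, and Tnc was high in C5aR-/- TAM 2 and 3 alone.

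Genes of hyaluronan, the other CD44 ligand, were lower in 8 of 13 tested cases and higher in 5 (median -0.20). The median was 0.02 without WT TAM 1, 0.10 without C5aR-/- TAM 1, -0.10 without C5aR-/- TAM 3 and -0.35 without WT TAM 3. Without overlap, 2 genes were higher and 1 lower. Ugdh, which makes a hyaluronan precursor, was 33.96 to 42.7 in WT and 52.5 to 67.5 in C5aR-/- TAMs, and Hmmr, a hyaluronan-binding protein of dividing cells, was 18.4 to 20.6 and 20.9 to 29.2. Stab2, a hyaluronan scavenger receptor that did not pass the filter, was at most 0.02 in WT and 0.89 to 3.84 in C5aR-/- TAMs. Has1, a hyaluronan synthase, was 9.81 to 17.6 in WT and 1.56 to 9.89 in C5aR-/- TAMs (log2 difference -1.62, SE 0.55, limma adjusted p = 0.275), with overlap. Lyve1, a hyaluronan receptor of resident macrophages, spanned 2.55 to 126 in WT and 1.32 to 41.95 in C5aR-/- TAMs. Cemip, which degrades hyaluronan, was 5.96 to 10.1 in WT and 3.34 to 6.42 in C5aR-/- TAMs. Habp2 overlapped at 3.72 or less.

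Of 9 tested genes that anchor, shed or splice CD44, 5 were higher and 4 lower (median 0.04, and 0.0042 to 0.07 with 1 library left out, lowest without WT TAM 2). Ezr, the membrane-to-actin linker ezrin, was 640 to 694 in WT and 377 to 595 in C5aR-/- TAMs, without overlap (log2 difference -0.55, SE 0.20, limma adjusted p = 0.287). Mmp14, a membrane protease that sheds CD44, was 44.4 to 58.9 in WT and 46.5 to 89.7 in C5aR-/- TAMs. Esrp2 and Msn overlapped, with log2 differences of -0.31 and 0.27.

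Downstream of the receptors, 15 of 20 genes of integrin activation and signaling were higher, with a median of 0.07 that was -0.0088 without C5aR-/- TAM 1 and 0.21 without C5aR-/- TAM 3. Ptk2, focal adhesion kinase, was 58.6 to 72.7 in WT and 81.9 to 124 in C5aR-/- TAMs, without overlap (log2 difference 0.59, SE 0.18, limma adjusted p = 0.239). Vav3 was 3.82 to 4.82 in WT and 5.95 to 6.82 in C5aR-/- TAMs, also without overlap. Rac2 and Src overlapped, with log2 differences of -0.50 and 0.41.

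Of 14 transcription factors known to act on Spp1, 11 were higher (median 0.17), and 2 were higher without overlap. The median was 0.06 without C5aR-/- TAM 1, 0.08 without C5aR-/- TAM 2, 0.27 without WT TAM 1 and 0.36 without C5aR-/- TAM 3. Runx2, the bone lineage factor, had a TPM of 4.96, 4.86 and 9.62 in WT and of 10.96, 14.7 and 19.2 in C5aR-/- TAMs (log2 difference 1.12, SE 0.31, limma adjusted p = 0.21). Vdr, the vitamin D receptor, had a TPM of 26.4, 27.1 and 32.2 in WT and of 60.9, 43.1 and 51.1 in C5aR-/- TAMs (log2 difference 0.83, SE 0.17, limma adjusted p = 0.129). Mitf and Ets1 overlapped, with log2 differences of 0.56 and 0.36. Runx2 had 1 family motif in the Spp1 window shown above, which is a match of letters and no measurement of binding.

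In the list of genes often found with Spp1 in tumor macrophages, 10 of 15 were higher (median 0.47), and 6 were higher without overlap. The median was 0.73 both without WT TAM 1 and without C5aR-/- TAM 3. Lgals3, galectin 3, was 61.5 to 108 in WT and 215 to 277 in C5aR-/- TAMs (log2 difference 1.56, SE 0.22, limma adjusted p = 0.0666). Gpnmb, a lysosome-linked glycoprotein, was 0.73 to 2.14 in WT and 72.5, 5.76 and 2.29 in C5aR-/- TAMs, so its log2 difference of 2.26 (SE 1.08) was set largely by C5aR-/- TAM 1. Trem2, a lipid receptor of macrophages, was 21.4 to 69.1 in WT and 54.5 to 189 in C5aR-/- TAMs, with overlap.

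Not every gene of that list had the same direction: Fabp5 and Lpl, of fatty acid uptake, had log2 differences of -0.84 and -0.83, both with overlap. Among the genes of CXCL9 and FOLR2 macrophages, 5 of 8 tested were higher and 3 lower (median 0.47), and 0 of the 8 had groups apart. This median depended on single libraries and was 0.01 without C5aR-/- TAM 1, 0.17 without WT TAM 3, 0.30 without WT TAM 2, 0.78 without C5aR-/- TAM 3 and 0.86 without WT TAM 1. Mrc1, the mannose receptor CD206, was 3.34 to 30.3 in WT and 12.3 to 97.9 in C5aR-/- TAMs. Cxcl10 was 99.6 to 119 in WT and 50.8 to 115 in C5aR-/- TAMs, and Folr2 was 12.7 to 112 and 19.5 to 142.

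**Figure D4:**
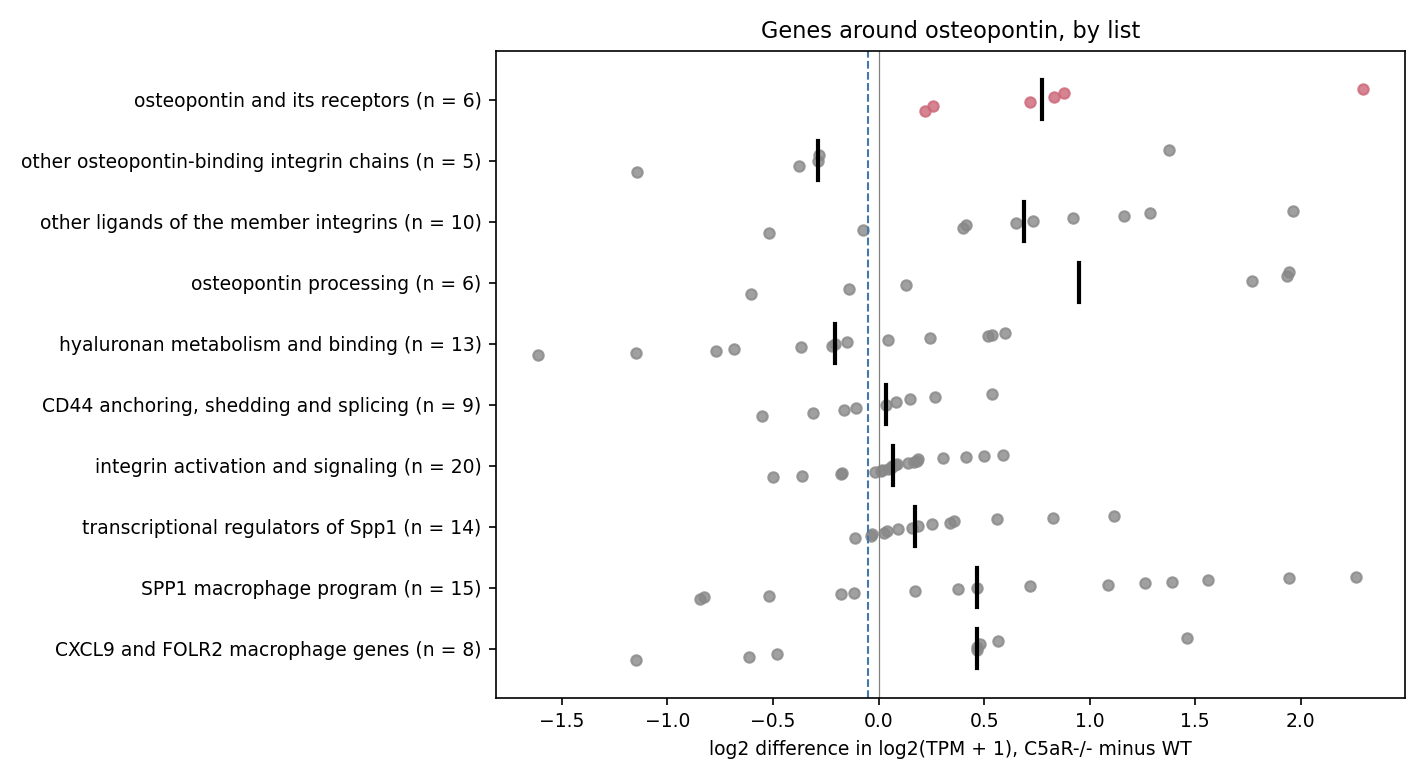
Each point is the log2 difference of 1 tested gene (horizontal axis, C5aR-/- minus WT), grouped by list, with a bar at the list's median, a dashed line at the median of all tested genes (-0.05) and a thin line at 0. Spp1 (2.30) is the rightmost red point, and the list medians run from -0.29 for other integrin chains to 0.95 for osteopontin processing.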

How the data were processed

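Reads were trimmed (fastp), mapped (HISAT2) and quantified (StringTie) by the authors. The submitters' processing notes also name RSEM, DESeq2 and the build mm10, without versions, and the annotation release is not given in the sources used here. The deposited values are TPM per gene, and 2 further columns hold the authors' group means, which were left out. TPM keeps no depth, so depth is unknown and no counting error is given.

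Symbols came from GENCODE M21 (52073 of 56980 gene IDs). A gene was tested when at least 3 libraries reached 1 TPM. limma 3.58.1 (R 4.3.3, eBayes with trend) was fitted to log2(TPM + 1), and p-values were adjusted by Benjamini-Hochberg over all tested genes. The pseudocount of 1 makes differences of low genes too small. The count tests of the study need reads and were not run. The fit was tested on simulated data. Members and lists were chosen with earlier results of these data known, and the promoter motifs after the sequence had been read. From each list the genes of largest absolute difference were named, at most 4, and others where a statement singles them out, chosen after their values were seen. Promoters are from RefSeq (GRCm38.p6), read with Python 3.11.15. The alternatives changed the pseudocount (0.1), the filter (none, or 5 TPM), the scaling (quantile, median-of-ratios), the variance model (eBayes without trend), the replicate block, or left out 1 library.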

Additional observations from a re-analysis of the deposited data

How the results depend on the processing

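Spp1, Itgav, Itgb3, Itgb5 and Itga9 kept a positive log2 difference under every alternative run. The number of the 6 genes whose groups were apart was 4, and 3 under median-of-ratios scaling (Itgav overlapped). It was 5 without WT TAM 1 or without C5aR-/- TAM 3. These counts were added after the data were seen. Of all 14776 genes, 3151 had groups apart in the main fit and 3209 under that scaling. The number over all genes was 4930 without WT TAM 1 and 4567 without C5aR-/- TAM 3. Nothing is read from the change in the member count. The labels do not say whether libraries of the same number were paired. The deviations of same-numbered libraries had correlations of 0.186, -0.011 and 0.272, which cannot decide it. Adgre1 fell from TAM 1 to TAM 3 in both groups (114, 45.8 and 25.4 in WT, 91.1, 40.1 and 27.9 in C5aR-/- TAMs). A fit with the replicate block called 0 genes by the adjusted rule and 811 by the unadjusted one, and the difference of Spp1 was 2.30.

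The unadjusted rule called 475 genes when the filter was set to 5 TPM, which tests fewer genes, and eBayes without trend called 2 genes by the adjusted rule. The median of the osteopontin processing list was 0.0694 with no filter, which adds genes near 0, and -0.0038 with the filter at 5 TPM. With 1 library left out, calls ranged from 0 to 356 by the adjusted rule and from 567 to 1266 by the unadjusted rule, and genes without overlap from 3645 to 6209. All 3 upper values came without C5aR-/- TAM 1, and without WT TAM 1 the genes without overlap were 4930. The difference of C5ar1 ranged from -5.63 to -4.45 and that of Cd44 from -0.0155 (without WT TAM 3) to 0.52. For the log2 ratio of Itgb5 to Itgb3, the difference between the groups ranged from -0.0488 (without C5aR-/- TAM 1) to 0.249. List medians ranged from 0.526 to 0.934 for other ligands, from -0.352 to 0.102 for hyaluronan genes (0.0242 without WT TAM 1), from -0.0088 to 0.214 for integrin signaling, from -0.400 to -0.0741 for other integrin chains, from 0.0611 to 0.364 for regulators of Spp1, from 0.0042 to 0.0739 for CD44 anchoring, from 0.383 to 0.733 for the SPP1 macrophage list and from 0.0133 to 0.858 for the CXCL9 and FOLR2 list. For the values that moved or reversed the cause was not tested. Ratios and overlap do not depend on the variance model or the block and were not refitted.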

Other observations

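Spp1, Itgb3 and Acp5 are also genes of osteoclasts, the bone-resorbing relatives of macrophages, and the other osteoclast markers were read for that reason. The 6 markers summed to a TPM of 19.1 to 24.8 in WT and 65.5 to 153 in C5aR-/- TAMs, most of it Acp5. Ctsk, which encodes cathepsin K, was 0.44 to 1.29 in WT and 20.7, 3.18 and 0.94 in C5aR-/- TAMs, with overlap. Atp6v0d2, a proton pump subunit, was 0.45 to 0.49 in WT and 6.59, 1.53 and 0.94 in C5aR-/- TAMs, and Dcstamp, of cell fusion, was at most 0.06 in WT and 0.11 to 2.47 in C5aR-/- TAMs. Calcr, the calcitonin receptor, was listed at 0 in all libraries. Ctsk, Atp6v0d2 and Itga9 were highest in C5aR-/- TAM 1, whereas Spp1 was highest in C5aR-/- TAM 3 and Itgb3 in C5aR-/- TAM 2.

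The remaining marker lists give the cell content beside these values. Neutrophil markers summed to 633 to 2473 in WT and 28.0 to 416 in C5aR-/- TAMs, although the sort was Ly6G-. B cell markers summed to 33.7 to 166 and 9.16 to 168, T cell markers to 17.8 to 81.5 and 15.1 to 52.6, endothelial markers to 13.01 to 18.6 and 10.6 to 27.5, and smooth muscle markers to 7.68 to 15.9 and 5.67 to 20.2, in WT and C5aR-/- TAMs respectively. The mast cell list summed to 84.5 to 140 in WT and 59.5 to 87.8 in C5aR-/- TAMs, and most of the latter was Kit, which was higher (28.9 to 33.1 in WT and 54.6 to 85.4 in C5aR-/- TAMs). The part of these cells in the Spp1 and integrin values was not tested.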
